A study of Mus musculus with 19 samples.

Results

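The genes described here encode the ligands, receptors, Smad proteins and antagonists of transforming growth factor-beta (TGF-beta) and bone morphogenetic protein (BMP) signalling. They were picked by gene name among the protein-coding rows of the count table, with a name rule that uses no measured value, and 67 of 54532 rows were members. The samples were whole obstructed left kidneys of male mice on the C57BL/6J background, 8 to 9 weeks old, taken on day 12 of obstruction of one ureter (UUO), a surgical model of kidney fibrosis. The 4 groups were wild-type (WT) mice given PBS (n = 5), WT mice given recombinant CD5L (rCD5L; n = 5), CD5L knockout (KO) mice given PBS (n = 4) and KO mice given rCD5L (n = 5). CD5L is a soluble protein made chiefly by tissue macrophages, and rCD5L was mouse CD5L produced in a hamster cell line and injected into the peritoneum daily at 0.5 mg per mouse. All 4 groups carried the obstruction, and no unobstructed kidney was among the 19 samples, so every comparison is between injured kidneys.

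TGF-beta ligands are secreted in a latent form, and once released they bring together a type II and a type I receptor, which phosphorylates Smad2 and Smad3. BMPs and some growth and differentiation factors signal through related receptors to Smad1, Smad5 and Smad9, and both arms share Smad4. In the kidney TGF-beta is known as a main driver of matrix production by fibroblasts, and BMP7 as a tubular factor that opposes it.

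Total counts ranged from 17917491 to 23847090 per kidney, and the members took between 0.149% and 0.341% of them. Cd5l had 0 counts in every KO kidney and 3 to 15 counts in the WT kidneys. One library stood farthest apart, KO rCD5L replicate 4. Its mitochondrial share was 10.3% against 2.34% to 4.55% in the 18 other libraries, its TMM factor, the scale edgeR sets for a library, was 0.682 against 0.874 to 1.07, and the members took their lowest share of counts in it. Summed proximal tubule markers reached 22227 CPM (counts scaled to library size) in this kidney against 1808 to 3836 in the others. The main results that rest on the KO rCD5L group are therefore also given without it. KO rCD5L replicate 3, which stays in those values, had the next lowest TMM factor, 0.874, where the remaining libraries had 0.968 or more. Of all kidneys it was lowest for Skil (44.2 CPM), Bmpr1a (82.6 CPM) and Bmpr2 (62.9 CPM) and highest for Tgfb1 (169 CPM).

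Levels between genes were compared as FPKM, which divides by gene length, over all 19 kidneys. Fstl1, a secreted follistatin-like glycoprotein, was the most abundant member at 61.0 ± 15.9 FPKM (SD, n = 19). The type II and type I TGF-beta receptors followed, Tgfbr2 at 30.6 ± 4.77 and Tgfbr1 at 24.2 ± 3.69 FPKM, and then Ski, a nuclear repressor of Smad activity, at 24.03 ± 2.87 FPKM. The ranges of Tgfbr2, Tgfbr1 and Ski over the kidneys overlapped, so their order is not resolved. In all, 16 of the 67 members had a mean of 10 FPKM or more and 21 were under 1 FPKM.

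Among the ligands the BMPs Bmp6 (19.4 ± 2.70 FPKM) and Bmp4 (16.4 ± 1.498) lay above Tgfb1 (14.5 ± 3.94) and the stress-induced ligand Gdf15 (13.4 ± 5.09). Their ranges overlapped too. Tgfb3 (6.21 ± 1.72) and Tgfb2 (2.60 ± 0.60) were lower, and Bmp7 stood at 4.78 ± 1.46 FPKM. The activin subunits Inhbb and Inhba stood at 8.03 ± 2.06 and 3.66 ± 1.44 FPKM. Bmp6 shares exon bases with Txndc5 on the other strand, and since the strand setting of the counting was not given, reads of that pair cannot be told apart; 22 members share exon bases with some other gene model.

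**Figure D1:**
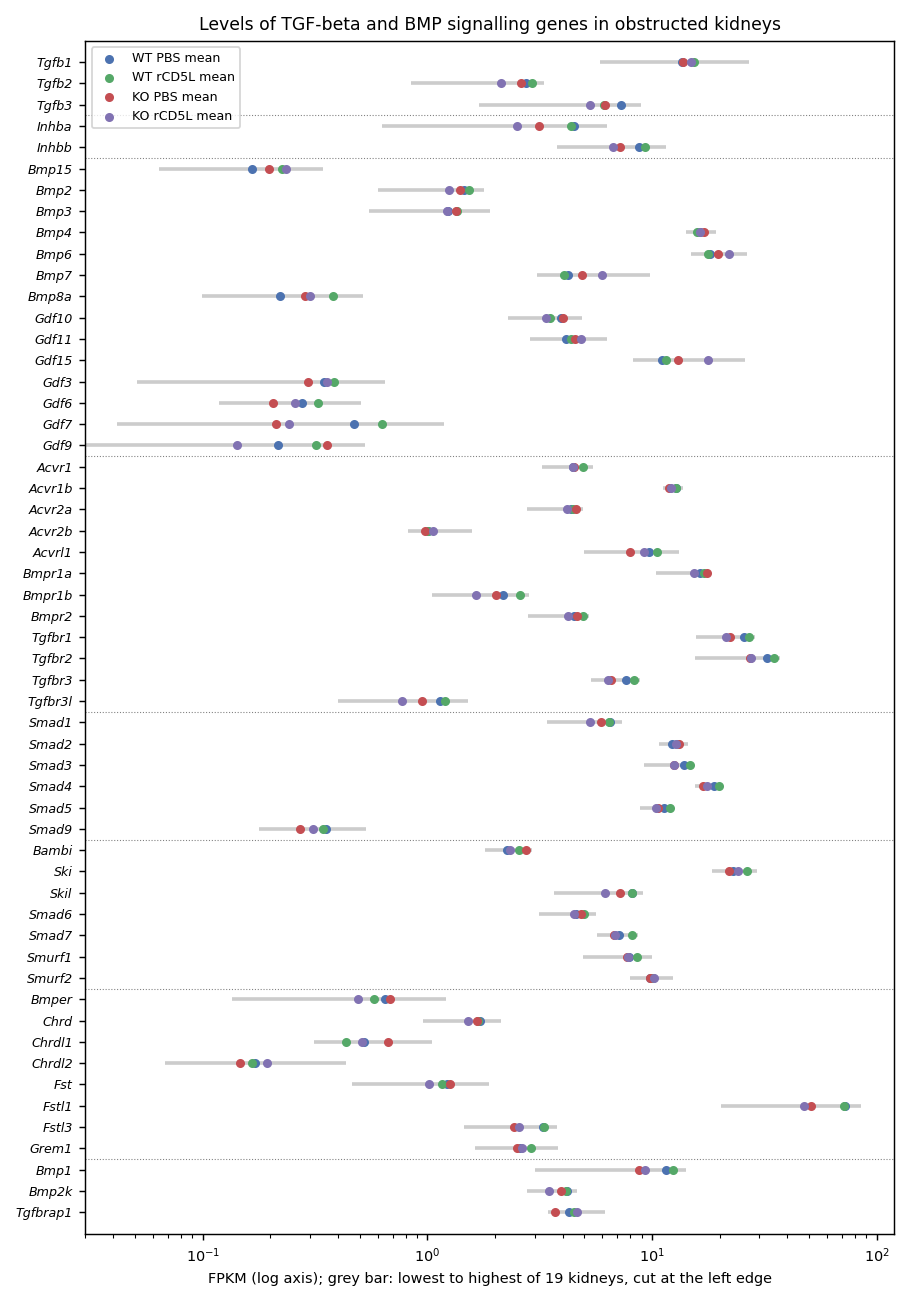
Mean FPKM per group (coloured points, log axis) and the range over 19 kidneys (grey bars, cut at the left edge) for 55 of the 56 members with a mean of 0.1 FPKM or more, in blocks by role. Fstl1 is highest at 61.0 FPKM, and the group means of most members lie close together relative to the range.

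Whether loss of CD5L altered these genes in the obstructed kidney was asked by comparing KO with WT kidneys, both given PBS. Of the 67 members 57 passed the filter on low counts; those below it were Gdf1 (0 counts in all 19 kidneys), Gdf2, Gdf5, Bmp5, Bmp8b, Bmp10, Inhbc, Inhbe, Fstl4 and Fstl5. In edgeR's quasi-likelihood fit, with p-values adjusted by Benjamini-Hochberg over all 17579 genes tested, 6 of 57 members changed, 1 higher and 5 lower. That is 10.5% of the members, and 10.5% of all genes tested were called as well (5.13% higher and 5.4% lower), so the share of members called was that of the transcriptome. At an unadjusted p under 0.05 there were 18 members against 26.6% of all genes, and the groups did not overlap for 8 members against 14.1% of all genes. The median log2 fold change of the tested members was -0.06 and that of all genes 0.00.

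Tgfbr2, the receptor that binds TGF-beta and starts the signal, fell in KO kidneys. Its values were 318, 334, 299.8, 342 and 317 CPM in the WT kidneys and 273, 267, 277 and 282 CPM in the KO kidneys. Every KO kidney lay below every WT kidney. The means were 275 ± 6.50 (SD, n = 4) and 322 ± 16.4 CPM (SD, n = 5), a log2 fold change of -0.24 (SE 0.0539, edgeR adjusted p = 0.0177). Tgfbr1, the partner type I receptor, was at 178 ± 8.33 against 204 ± 13.0 CPM and did not pass (log2 -0.20, edgeR adjusted p = 0.0543).

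Acvrl1, a type I receptor for BMP9 and BMP10 found mainly on endothelium, also fell. The WT kidneys had 49.6, 55.2, 44.9, 51.0 and 49.4 CPM and the KO kidneys 44.7, 43.1, 37.1 and 41.9 CPM, and the groups did not overlap, though the highest KO value was close to the lowest WT value. The log2 fold change was -0.27 (SE 0.0729, edgeR adjusted p = 0.0354). Acvrl1 shares exon bases with a gene model on the other strand. In the files' GRCm38 coordinates Tgfbr2 lies on chromosome 9 from 116084293 to 116175360 (minus strand) and Acvrl1 on chromosome 15 from 101128522 to 101145336 (plus strand).

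Bambi, a receptor-like protein without a kinase domain that blocks TGF-beta signalling, was the only called member that rose. It had 13.5, 14.7, 13.2, 14.9 and 12.7 CPM in WT and 17.8, 18.2, 16.8 and 15.8 CPM in KO kidneys, with every KO kidney above every WT kidney. The log2 fold change was 0.31 (SE 0.0814, edgeR adjusted p = 0.0319).

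Fstl1 had the widest change of the called members. It had 447, 509, 326, 492 and 382 CPM in WT and 345, 361, 266 and 265 CPM in KO kidneys, and the groups overlapped. The log2 fold change was -0.49 (SE 0.138, edgeR adjusted p = 0.0414).

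A pair of further calls fell on genes matched by name whose proteins have other roles. Bmp1 is a protease that trims procollagen and is no BMP. It had 121, 139.9, 105, 146 and 112 CPM in WT and 102, 103, 93.7 and 85.4 CPM in KO kidneys, without overlap (log2 -0.38, SE 0.0988, edgeR adjusted p = 0.0288). Tgfbrap1, a receptor-associated protein that also serves in endosome tethering, had 58.8, 57.6, 55.5, 56.7 and 57.3 CPM in WT and 51.2, 46.8, 54.5 and 47.2 CPM in KO kidneys, without overlap (log2 -0.20, SE 0.0569, edgeR adjusted p = 0.0401). It shares exon bases with 2 gene models on the other strand.

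**Figure D2:**
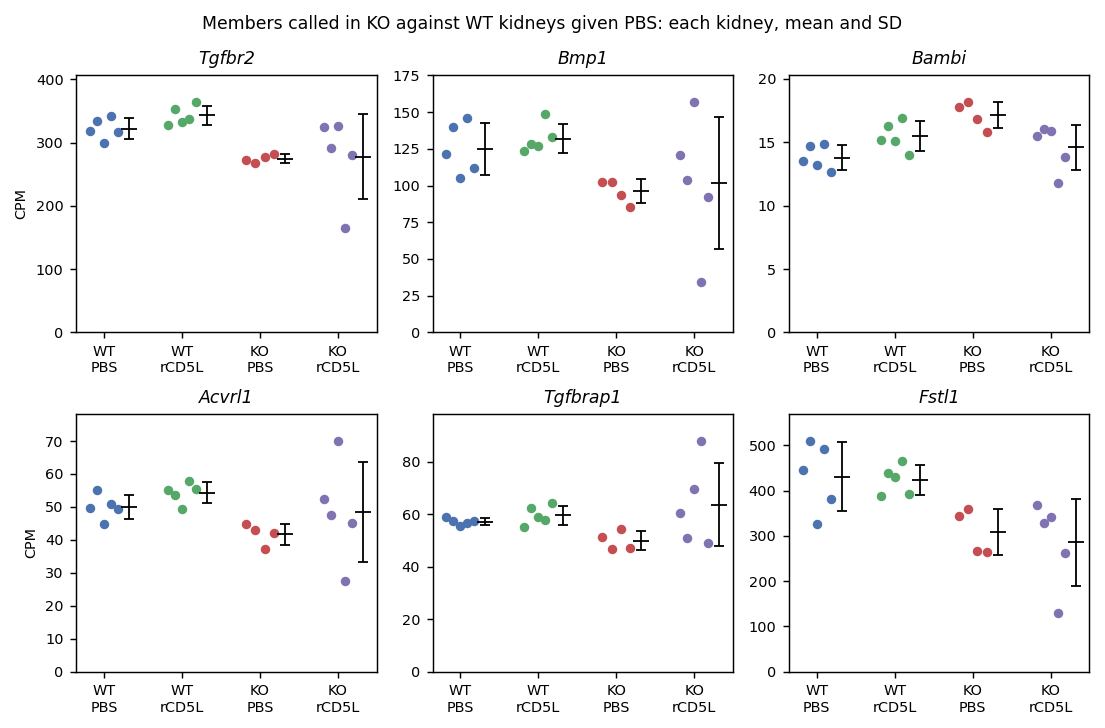
CPM of the 6 called members in each of the 19 kidneys by group, with the mean and SD at the right of each group and the axis from 0. KO kidneys given PBS lie below WT kidneys given PBS for 5 genes (overlapping only for Fstl1) and above them for Bambi, and the KO rCD5L group is spread widely.

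The fold changes of all genes in this comparison fell with gene length (Spearman rho -0.28 over genes, each of which is no independent replicate), and members were longer than the genes tested (medians of 4833 and 3808 bases). With an offset for gene length in the fit, 1 of 57 members kept its call, Bambi, or 1.75%, against 7.42% of all genes, and the 5 lower calls were lost (adjusted p = 0.0530 for Acvrl1, 0.0624 for Fstl1, 0.0652 for Tgfbr2, 0.0773 for Bmp1 and 0.313 for Tgfbrap1). The log2 fold changes were then -0.25 for Acvrl1, -0.46 for Fstl1, -0.17 for Tgfbr2, -0.31 for Bmp1 and -0.11 for Tgfbrap1. Over 18 alternatives each call was lost in some: Tgfbr2 passed in 14, Bmp1 in 12, Acvrl1 in 9, Bambi in 8, Fstl1 in 7 and Tgfbrap1 in 5. With all 19 kidneys in 1 fit 0 members were called, against 0.065% of all genes, and DESeq2 called 8 of 49 members, or 16.3%, against 17.8% of all genes. Most markers of fibroblasts and endothelium were lower too. Of 10 fibroblast and myofibroblast markers 7 were called lower and 2 were higher in mean. Of 8 endothelial markers 4 were called lower, and none of either list was at 0. Summed fibroblast markers were at 4686 to 7054 CPM in WT against 3309 to 4572 CPM in KO kidneys, and endothelial markers at 833 to 944 against 703 to 786 CPM. Podocyte markers were lower in mean in 6 of 6 genes (median log2 -0.17, 1 called). Proximal tubule markers were higher in 5 of 10 (1 called higher) and macrophage markers in 3 of 8 (1 called in each direction). Collecting duct markers were higher in 5 of 6. Lymphocyte markers were lower in 7 of 8, thick limb and distal nephron markers in 4 of 6 and epididymis markers in 4 of 5 tested. These last 4 lists had 0 calls. Urothelium markers had the widest median of the 10 marker lists and were higher in mean in KO kidneys in 7 of 7 genes (median log2 0.79, 0 called), with sums of 31.5 to 222 CPM in WT and 256 to 410 CPM in KO kidneys that did not overlap. Their part in the members' values was not tested. In whole-kidney RNA, fewer cells of a type and less RNA per cell cannot be told apart.

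The ligands gave 0 calls among 19 tested, where 10.5% of all genes were called. With so few tested, 0 calls does not set them apart from that share. Tgfb1 had 77.6, 98.1, 84.8, 76.6 and 80.2 CPM in WT and 84.5, 84.2, 89.4 and 84.2 CPM in KO kidneys, with the KO values inside the WT range (log2 0.03, SE 0.0713, edgeR adjusted p = 0.843). Tgfb3 stood at 25.7 ± 4.98 against 29.9 ± 6.60 CPM (log2 -0.22) and Tgfb2 at 18.6 ± 2.79 against 19.3 ± 2.37 CPM (log2 -0.06). Inhba, the activin A subunit, was at 24.7 ± 6.68 against 34.9 ± 8.84 CPM (log2 -0.50, edgeR adjusted p = 0.141), and Bmp7 at 24.2 ± 2.58 against 20.7 ± 1.95 CPM (log2 0.22, edgeR adjusted p = 0.141). Of the 6 Smads that carry the signal 0 were called, again too few to set beside that share. Smad4 was nearest (log2 -0.14, edgeR adjusted p = 0.0869) and Smad3 had log2 -0.13.

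The sequences before the gene start are shown for the called members with an entry in the RefSeq promoter table (GRCm38.p6). Entries were found for 47 of the 67 members. Each is 5′ to 3′ on the gene's strand, cut where the count table's own gene model begins, with the letters CAGAC (a Smad-binding box) or GGCGCC (a GC-rich Smad site), on either strand, in capitals. The windows are chr9:116175364-116175613 (Tgfbr2, minus strand), chr16:37776805-37776872 (Fstl1, plus strand) and chr1:43098638-43098878 (Tgfbrap1, minus strand).
Tgfbr2: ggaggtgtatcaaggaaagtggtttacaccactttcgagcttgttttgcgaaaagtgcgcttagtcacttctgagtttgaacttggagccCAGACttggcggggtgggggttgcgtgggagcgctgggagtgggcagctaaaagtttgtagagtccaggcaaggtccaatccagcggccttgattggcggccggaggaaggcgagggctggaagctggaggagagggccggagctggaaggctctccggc
Fstl1: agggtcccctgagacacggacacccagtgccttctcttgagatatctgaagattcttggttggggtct
Tgfbrap1: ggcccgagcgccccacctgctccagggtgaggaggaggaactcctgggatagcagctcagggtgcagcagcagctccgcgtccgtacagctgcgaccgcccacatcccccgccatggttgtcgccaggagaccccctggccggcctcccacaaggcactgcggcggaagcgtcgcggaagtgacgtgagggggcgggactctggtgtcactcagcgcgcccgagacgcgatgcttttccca
Tgfbr2 held 1 CAGAC box in 250 bases, Tgfbrap1 0 in 241 and Fstl1 0 in 68, a window too short to set beside the shares that follow. Over 250 bases before the start, CAGAC was in 42.2% of 32851 windows of all genes and in 47.4% of 57 windows of members, and GGCGCC in 9.59% and 21.1%. The members' windows were richer in G and C (median 66.4% against 52.4%). These are matches of letters and say nothing of binding.

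Genes that act on or respond to the pathway were read from gene lists. These lists were chosen with earlier results of these data known, so their counts are no independent support. Among 19 genes known to be induced by TGF-beta, 8 were called lower in KO kidneys and 0 higher (median log2 -0.28), where 5.4% of all genes were called lower. Col3a1, a fibrillar collagen, fell by 0.86 on the log2 scale (SE 0.145, edgeR adjusted p = 0.00643), the smooth-muscle actin gene Acta2 by 0.74 (SE 0.155), and Ctgf, a matricellular growth factor gene, by 0.68 (SE 0.136). Fn1, Col1a1 and Col1a2 fell by 0.54 to 0.62, and Tgif1, a Smad corepressor, by 0.22. Their summed level was 5663 to 8223 CPM in WT and 4163 to 5286 CPM in KO kidneys. The list shares 5 genes with the fibroblast markers, and 4 of the 8 called are among these; the 4 called outside them include Ctgf, Fn1 and Tgif1. With the length offset 6 were called, against 7.42% of all genes, and with all 19 kidneys in 1 fit 0, against 0.065%.

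Of 15 genes of latent TGF-beta handling 4 were called lower and 0 higher, where 5.4% of all genes were called lower. With the length offset 3 were called, against 7.42% of all genes, and with all 19 kidneys in 1 fit 0, against 0.065%. Thbs1, which can release TGF-beta from its latent complex, fell by 0.65 (SE 0.0937, edgeR adjusted p = 0.00497), Lrrc32, which anchors latent TGF-beta on cells, by 0.53, the matrix proteoglycan Bgn by 0.43 and the latent-complex protein Ltbp3 by 0.24. Calls were few among 13 tested other ligands, co-receptors and antagonists, with the endothelial co-receptor Eng (log2 -0.35) and Neo1 (log2 -0.21) lower, and among 17 intracellular regulators, with Nedd4l (log2 -0.37), a ubiquitin ligase, and Ep300 (log2 -0.32), an acetyltransferase and Smad coactivator, lower. These 2 calls in each list, near the 10.5% of all genes, became 1 in each with the length offset and 0 with all 19 kidneys in 1 fit. Of 9 tested genes known to be induced by BMPs 0 were called; Hey1 (log2 -0.55) and Id2 (log2 0.24) had the smallest p.

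**Figure D3:**
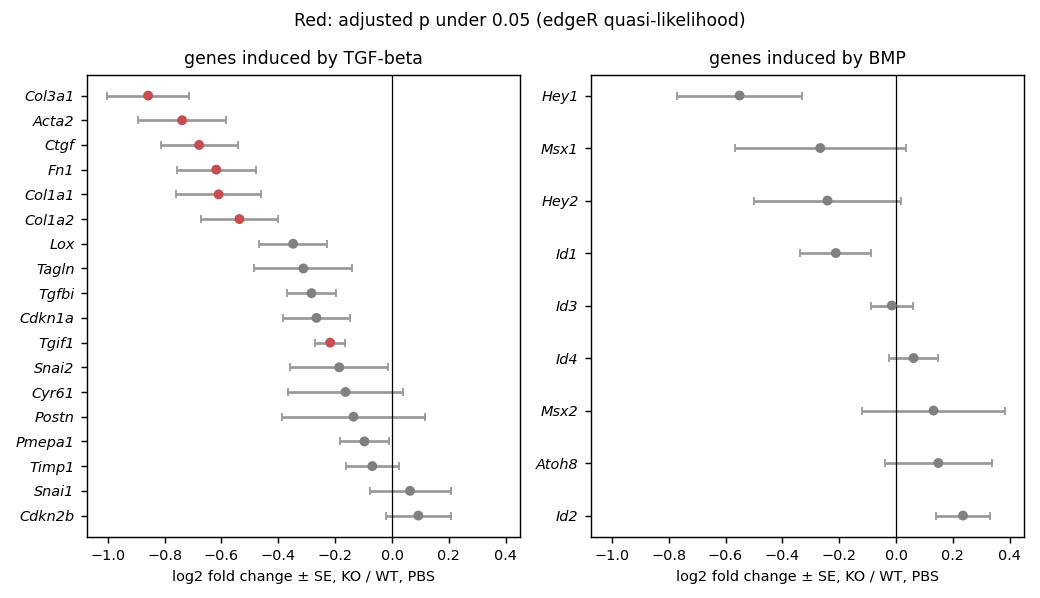
Log2 fold change with SE of KO against WT kidneys, both given PBS, for 18 of the 19 genes known to be induced by TGF-beta (left) and 9 by BMPs (right); red points passed the adjusted threshold. On the left 7 of the plotted genes passed, all lower, and on the right 0 passed.

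Whether rCD5L altered the genes in WT mice was asked by comparing WT kidneys given rCD5L or PBS. By edgeR's quasi-likelihood test 0 of 56 members were called, as were 0% of 17455 genes. At an unadjusted p under 0.05 there were 8 of 56 members, against 16% of all genes in either direction. Groups did not overlap for 3 members (5.36%), against 3.6% of all genes. Each of the 8 was higher with rCD5L, but no share of all genes was taken for 1 direction alone. DESeq2 called 1 of 48 members, Ski (adjusted p = 0.0155), or 2.08%, against 3.82% of all genes. The 3 members with the smallest p were Ski, Bmpr2 and Smad7.

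Ski had 150.1, 163, 153, 159 and 154 CPM with PBS and 168, 177, 175, 174 and 196 CPM with rCD5L (log2 0.20, SE 0.0499, edgeR adjusted p = 0.113). Bmpr2, the type II BMP receptor, had 99.1, 98.1, 97.7, 98.7 and 96.9 CPM with PBS and 107, 115, 101, 109 and 105 CPM with rCD5L (log2 0.14, SE 0.0424, edgeR adjusted p = 0.144). Smad7, the inhibitory Smad that TGF-beta itself induces, had 40.7, 39.9, 40.4, 41.4 and 34.2 CPM with PBS and 44.0, 42.7, 43.6, 47.1 and 44.1 CPM with rCD5L (log2 0.18, SE 0.0592, edgeR adjusted p = 0.161). In all, 39 of 56 members had a fitted log2 fold change above 0 with rCD5L (median log2 0.08, and 0.00 over all genes). These included 10 of 12 receptors, 4 of 6 Smads that carry the signal, 10 of 14 BMP and GDF ligands and 7 of 7 brakes inside the cell. Of 9 antagonists or binding proteins outside the cell 3 were above 0 and 6 below. In Ski, Bmpr2 and Smad7 every rCD5L kidney lay above every PBS kidney, yet none passed the adjusted threshold of edgeR. All-gene fold changes rose with gene length here (Spearman rho 0.24 across genes). Among the marker lists 0 genes were called. Those of epididymis were higher in mean with rCD5L in 5 of 5 tested genes (median log2 0.70), of lymphocytes in 8 of 8 (0.36) and of macrophages in 7 of 8 (0.09), while those of proximal tubule were lower in 10 of 10 (-0.42) and of urothelium in 7 of 7 (-0.20). Their part in the members' values was not tested. Tgfb1 was at 93.5 ± 9.25 against 83.5 ± 8.76 CPM (log2 0.17, edgeR adjusted p = 0.298). Among the 5 pathway lists 0 genes were called.

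In KO mice, rCD5L against PBS gave 0 of 56 members by edgeR, as for 0% of 17467 genes, and DESeq2 also called 0 members, against 0.00973% of all genes. At an unadjusted p under 0.05 there was 1 member, Gdf9, against 2.87% of all genes, and 0 members were without overlap against 2.35%. Gdf9, a growth factor of the oocyte, was low throughout, with 0 to 29 counts per kidney. Its values were 0.857, 1.25, 0.860 and 0.620 CPM with PBS and 0.671, 0.386, 0.192, 0 and 0.525 CPM with rCD5L (log2 -1.27, SE 0.567, edgeR adjusted p = 0.897, and log2 -1.01 without replicate 4). Next by p were Tgfbrap1 (log2 0.34, SE 0.168) and Bambi (log2 -0.24, SE 0.132), each with edgeR adjusted p = 0.897. Both kept their direction under each of 18 alternatives and passed in 0.

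The spread in the KO rCD5L group was wide. Tgfb1 had 109, 78.3, 169, 38.4 and 70.3 CPM there against 84.2 to 89.4 CPM in KO kidneys given PBS, with a mean of 92.9 ± 49.3 CPM (SD, n = 5). The lowest value was that of replicate 4 and the highest that of replicate 3. Tgfbr2 (165 CPM) and Tgfb3 (7.43 CPM) were also lowest in replicate 4. In that kidney the summed fibroblast markers were at 1672 CPM against 3206 to 7054 CPM in the 18 others, and the macrophage markers at 652 against 1712 to 2793 CPM. The median log2 fold change of the members was -0.04 with replicate 4 and 0.02 without it, and without it 0 members were called, as were 0% of all genes. Epididymis markers were higher in mean with rCD5L in 5 of 5 tested genes (median log2 1.38, and 1.39 without replicate 4) and urothelium markers lower in 7 of 7 (-0.50 and -0.40). Medians were higher with replicate 4 than without it for the markers of proximal tubule (1.29 and 0.01), thick limb and distal nephron (0.59 and -0.07) and collecting duct (0.35 and 0.19). None of these markers was called, and their part in the members' values was not tested.

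KO against WT, both given rCD5L, likewise gave 0 of 56 members by edgeR (0% of 17360 genes) and 0 by DESeq2 (0.387% of all genes). At an unadjusted p under 0.05 there were 10 of 56 members against 17.8% of all genes. Without overlap were 5 members (8.93%), against 7.51% of all genes in either direction. Each of the 5 was lower in KO, but no share of all genes was taken for 1 direction alone. Tgfbr3, the co-receptor betaglycan, had 63.7, 66.4, 69.8, 59.5 and 68.2 CPM in WT and 55.3, 47.3, 54.97, 45.4 and 54.4 CPM in KO kidneys (log2 -0.37, SE 0.0927, edgeR adjusted p = 0.259). It shares exon bases with 1 gene model on its own strand. Bmpr1b, a type I BMP receptor, had 20.3, 16.4, 18.5, 19.1 and 18.5 CPM in WT and 15.8, 14.5, 9.23, 8.12 and 13.2 CPM in KO kidneys (log2 -0.62, SE 0.186, edgeR adjusted p = 0.259). With all 19 kidneys in 1 fit these 2 of 57 members were called (Tgfbr3 adjusted p = 0.0317, Bmpr1b 0.0390), or 3.51%, against 7% of all genes. Fstl1 was at 287 ± 96.1 against 423 ± 32.9 CPM (log2 -0.59) and did not pass. Of the genes induced by TGF-beta 0 were called, with 19 of 19 lower in mean (median log2 -0.37), and of the fibroblast markers 0, with 10 of 10 lower in mean (median log2 -0.47). Without KO rCD5L replicate 4 these medians were -0.21 and -0.30, with 17 of 19 and 9 of 10 lower in mean. Of the members 44 of 56 were lower in mean in KO kidneys with and without that replicate (median log2 -0.17 and -0.12). The median over all genes, with that replicate, was -0.01. All-gene fold changes fell with gene length here too (Spearman rho -0.28 across genes), and with the length offset 41 of 56 members were lower (median log2 -0.10). Without replicate 4 the log2 fold change was -0.33 for Tgfbr3, -0.51 for Bmpr1b and -0.40 for Fstl1. Proximal tubule markers were higher in mean in 10 of 10 genes (median log2 1.76, and 0.38 without replicate 4), as were collecting duct markers in 6 of 6 (0.71 and 0.29), thick limb and distal nephron markers in 6 of 6 (0.32 and -0.05) and urothelium markers in 7 of 7 (0.51 and 0.57). Lymphocyte markers were lower in 8 of 8 genes (-0.42 and -0.22), podocyte markers in 6 of 6 (-0.42 and -0.33), macrophage markers in 7 of 8 (-0.31 and -0.11) and endothelial markers in 7 of 8 (-0.20 and -0.20). None of these markers was called, though 5 proximal tubule and 2 podocyte markers were with all 19 kidneys in 1 fit, and their part in the members' values was not tested.

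Whether the effect of rCD5L differed by genotype was tested as an interaction over all 19 kidneys. By edgeR 0 of 57 members were called (0% of 18454 genes), with 3 members at an unadjusted p under 0.05 against 6.25% of all genes, and DESeq2 called 0 members and 0% of all genes. The 3 were Bambi (log2 difference -0.40, SE 0.138), Gdf9 (-1.79) and Bmpr1b (-0.53), each with edgeR adjusted p = 0.731. Without KO rCD5L replicate 4 these differences were -0.34, -1.55 and -0.43 (edgeR adjusted p = 0.853 for each) and 0 members were called. The comparisons share control kidneys, so their values are set side by side and no overlap is read from them.

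**Figure D4:**
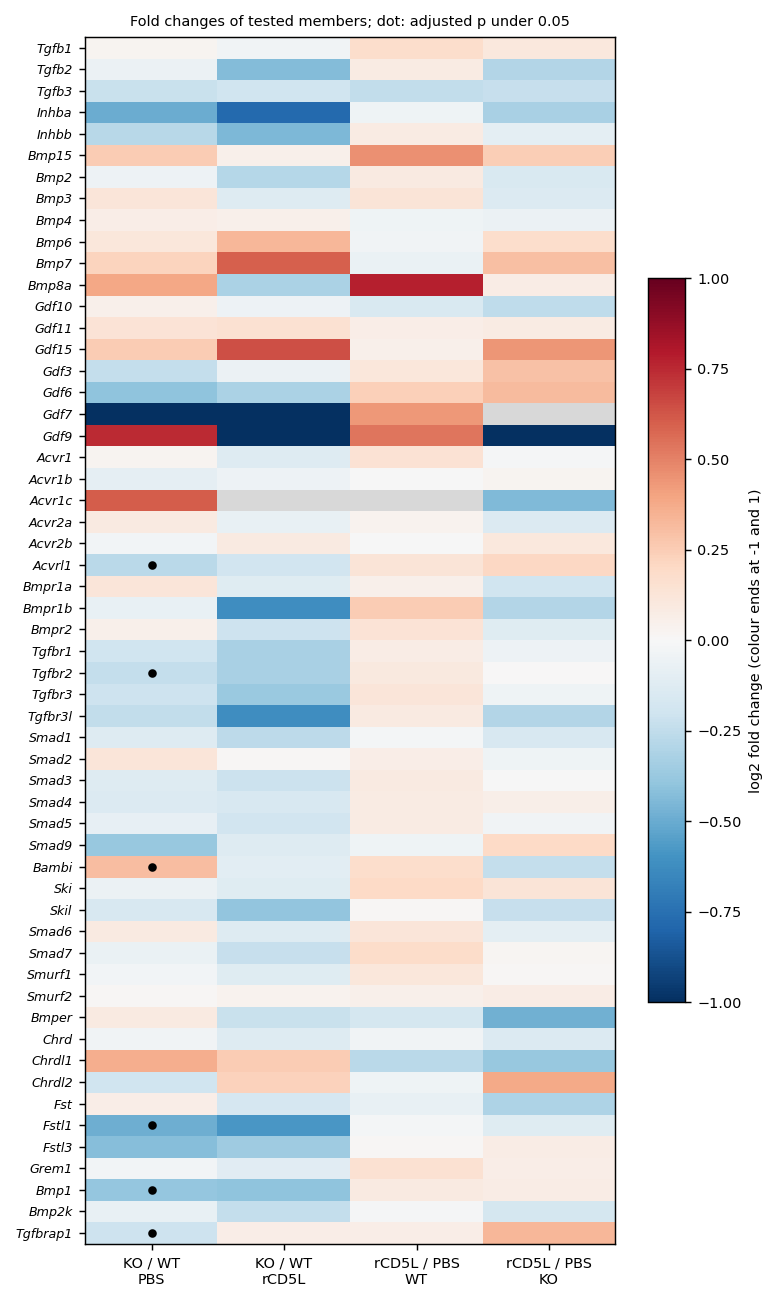
Log2 fold change of 56 of the 57 tested members in 4 comparisons (columns; colour scale ends at -1 and 1, grey where not tested in that comparison); dots mark the 6 calls, all in KO against WT kidneys given PBS. Receptors and Smads are mostly pale in each column.

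The levels of 10 ligands were set against 2 marker lists over the 19 kidneys, as deviations from the group means, giving 20 relations. By permutation within groups 6 of 20 passed at a Benjamini-Hochberg adjusted Pearson p under 0.05. Tgfb3 followed the fibroblast and myofibroblast markers most closely, with r = 0.97 (permutation p = 1e-05, the smallest these permutations can give; adjusted p = 0.0002) and rho = 0.94 (permutation adjusted p = 0.0004), and r = 0.92 without the 2 farthest kidneys and with group means taken anew. Of 18453 other genes 1 had an r as large, Col3a1, itself one of these markers. Tgfb1 had r = 0.82 (permutation adjusted p = 0.0345) but rho = 0.37 (permutation adjusted p = 0.346), and r = 0.38 without the 2 farthest kidneys, so that relation rests on them; 6.8% of other genes had an r as large. The other 4 were with proximal tubule markers: Tgfb2 (r = -0.83, r = -0.34 without the 2 farthest and with means taken anew), Tgfb3 (-0.82, -0.38), Inhba (-0.71, -0.34) and Bmp7 (0.77, 0.53). An r as large in either direction was found in 13.5%, 14.6%, 26.5% and 19.9% of other genes, and KO rCD5L replicate 4 lay farthest out on both marker scores. Their permutation adjusted Pearson p was 0.0345, 0.0345, 0.0345 and 0.0325 in that order. Their rho was -0.51, -0.64, -0.56 and 0.58, with permutation adjusted p of 0.112, 0.0323, 0.0636 and 0.0323. By rho 5 of 20 relations passed, among them 2 that did not pass by r: Bmp4 with fibroblast markers (rho = -0.63, permutation adjusted p = 0.0323; r = -0.44, 0.127) and Bmp6 with proximal tubule markers (rho = 0.60, 0.0323; r = 0.53, 0.154). Without KO rCD5L replicate 4, with group means taken anew, 1 of the 20 passed by r, Tgfb3 with the fibroblast markers (r = 0.93), and 3 passed by rho, that one, Bmp4 with fibroblast markers (rho = -0.63, permutation adjusted p = 0.0455) and Bmp6 with proximal tubule markers (rho = 0.65, 0.0369). The proximal tubule relations were then weaker, at r = -0.36 for Tgfb2, -0.39 for Tgfb3, -0.39 for Inhba and 0.41 for Bmp7 (permutation adjusted p = 0.246, 0.246, 0.246 and 0.165).

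**Figure D5:**
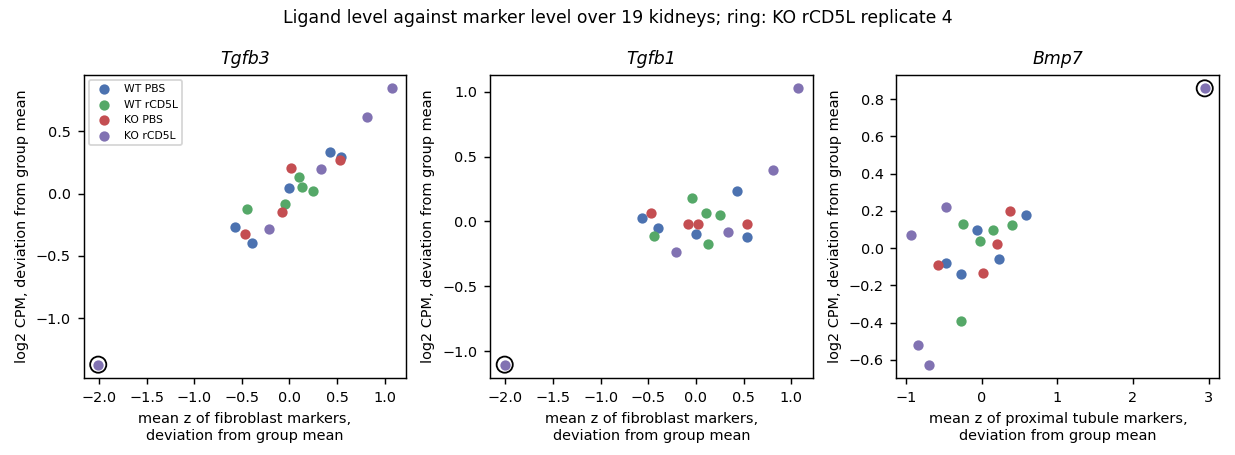
Ligand level (log2 CPM) against mean marker level (mean z), both as deviations from the group mean, for Tgfb3 and Tgfb1 with fibroblast markers and Bmp7 with proximal tubule markers; each point is 1 of 19 kidneys and the ring marks KO rCD5L replicate 4. Tgfb3 follows the markers over all kidneys, whereas the Tgfb1 and Bmp7 relations lean on a few kidneys.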

How the data were processed

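Whole-kidney RNA was sequenced as paired reads after random priming. Per the labels and the study's methods the authors trimmed reads with Trimmomatic, aligned them with HISAT2 to GRCm38 (mm10) and deposited featureCounts counts per gene and FPKM; versions, strand setting and handling of reads with several places were not given in the sources used here. Members and lists were chosen with earlier results of these data known. Members were taken by name, and every called member, the 3 with the smallest p where fewer than 3 were called, and a core list were named; of pathway lists, called genes and up to 4 others. Results of 1 member and 1 listed gene are not reported here on their own. Counts were tested with edgeR 4.0.16 (TMM, filterByExpr minimum 10, quasi-likelihood), only the 2 groups compared in each fit and all 19 kidneys for the interaction, called at an adjusted p under 0.05. CPM used 1 TMM scale over 19 kidneys. Counts of genes higher or lower in mean went by the sign of the fitted log2 fold change. Log2 FPKM (pseudocounts 1 and 0.1) went to limma 3.58.1, and DESeq2 1.42.0, RLE factors, other count filters, a gene length offset, all 19 kidneys in 1 fit, a replicate block and leaving out each kidney were alternatives. Correlations used log2 CPM (prior count 2) and 100000 permutations; taking group means anew without the 2 farthest kidneys was chosen after seeing the data. No 2 kidneys of a group agreed within sampling noise (chi-square per degree of freedom 6.63 to 319 over 36 pairs). On simulated counts the test recovered 67.7% of log2 changes of 0.5 and 74.0% of 1 for KO against WT given PBS (84% and 100% at 300 or more mean counts; 6.76% of calls false). For rCD5L in KO mice it recovered 0% and 11.5%, for rCD5L in WT mice 64.6% and 86.7%, and for KO against WT given rCD5L 2.04% and 42.7%.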

Additional observations from a re-analysis of the deposited data

Results flagged for a closer look

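Among 136 sets of group values of the named members, 10 had a kidney far from the rest of its group by Dixon's test, where chance alone gives about 1 in 20, or 6.8. In KO kidneys given PBS, replicate 3 was high for Tgfb1 at 89.4 CPM (next 84.5). In WT kidneys given PBS, replicate 1 was low for Smad3 at 85.5 CPM, replicate 3 high for Smad6 at 19.9 CPM and for Gdf15 at 35.2 CPM (next 23.6), and replicate 5 low for Smad7 at 34.2 CPM (next 39.9). In WT kidneys given rCD5L, replicate 5 was low for Tgfbr1 at 189.8 CPM, and replicate 4 was low for Bmp7 at 14.8 CPM and high for Fst at 8.57 CPM. In KO kidneys given rCD5L, replicate 4 was low for Tgfbr2 at 165 CPM (next 281) and replicate 3 low for Bmpr2 at 62.9 CPM (next 97.1).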

How the results depend on the processing

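For KO against WT kidneys given PBS, all 6 called members kept their direction under each of 18 alternatives, but the number called was 6 in the main test, 8 with DESeq2 and 4 without a filter, 1 with the gene length offset (Bambi, the 5 lower calls being lost) and 0 with all 19 kidneys in 1 fit, where 12 genes of the whole table were called against 1850. Leaving out 1 kidney gave 2 to 6 members; it was 2 without KO PBS replicates 1, 2 or 4 or WT PBS replicates 2, 4 or 5, and 3 without KO PBS replicate 3. With 1 of 9 kidneys left out, Tgfbr2 passed in 7, Bmp1 in 5, Bambi in 3 and Acvrl1, Tgfbrap1 and Fstl1 in 2 each. Tgfbr2 lost its call without KO PBS replicate 1 or 2 (adjusted p = 0.0509 and 0.0536), Bmp1 without KO 3 or 4 or WT 2 or 4, Bambi without KO 1, 2 or 3 or WT 1, 3 or 5, Acvrl1 without KO 2, 3 or 4 or WT 1, 2, 4 or 5, Tgfbrap1 without KO 1, 2 or 4 or WT 1, 2, 4 or 5, and Fstl1 without KO 1, 3 or 4 or WT 1, 2, 4 or 5. Bambi also lost it without a filter and with the replicate block (adjusted p = 0.0608 and 0.0738). The pathway and marker lists were rerun under alternatives chosen after seeing the data: genes induced by TGF-beta went from 8 to 0 with all 19 kidneys in 1 fit and to 5 to 10 with 1 kidney left out (5 without KO PBS replicate 1 or 4), and fibroblast markers from 7 to 0 and to 5 to 7. For rCD5L in WT mice the count went from 0 to 1 with DESeq2, and for KO against WT given rCD5L from 0 to 2 with all 19 kidneys in 1 fit; leaving out 1 kidney gave 0 in both. The ligand relations went from 6 to 1 without KO rCD5L replicate 4 and to 19 without taking out group means. The cause of these shifts was not tested. With the replicate block 5 members were called in place of 6, and 0 in the other comparisons; same-numbered kidneys correlated above 0.1 in 2 of 4 pairs for KO against WT given PBS (r of -0.05 to 0.12), 3 of 4 for rCD5L in KO mice (0.02 to 0.17), and 0 of 5 in the other two comparisons, so in no comparison did every pair, and the numbers were not taken to pair the kidneys. In simulation the comparisons with the KO rCD5L group missed most log2 changes of 0.5 and 1, except that for KO against WT given rCD5L 57.6% of changes of 1 were recovered at 300 or more mean counts.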
